A study of Mus musculus with 4 samples.

Results

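The genes described here encode 10 membrane proteins with known roles in the fusion of osteoclast precursors: Dcstamp, Ocstamp, Tm4sf19, Cd9, Cd81, Cd47, Sirpa, Adam8, Cd44 and P2rx7. They were chosen by these roles, by symbol, and all 10 had a row among the 12799 genes of the table. Poly(A) RNA was measured in 4 libraries of bone marrow-derived monocytes from 12-week-old female mice. Non-adherent marrow cells were grown with the growth factor M-CSF (30 ng/mL) and then for 3 days with M-CSF at that dose and RANKL, the osteoclast-inducing cytokine, at 50 ng/mL. The control group was Piezo1fl/fl, with loxP-flanked alleles of the stretch-gated cation channel gene Piezo1 and no recombinase (n = 2). The knockout group was Csf1r-iCre;Piezo1fl/fl, in which a Csf1r-driven recombinase deletes that segment in monocytes and their descendants (n = 2). All libraries shared the flanked alleles, the culture and the same batch value in the labels. Because no group carried Csf1r-iCre without the flanked alleles, effects of the transgene and of Piezo1 loss cannot be told apart.

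An osteoclast becomes able to resorb bone efficiently when mononuclear precursors merge into a cell with many nuclei. RANKL induces the multipass membrane proteins DC-STAMP and OC-STAMP, without which precursors differentiate but stay largely mononuclear. Tetraspanins such as CD9 and CD81 organise the membrane into microdomains, the receptor SIRPA binds CD47 on the neighbouring cell, and CD44, ADAM8 and the nucleotide-gated channel P2X7 have been implicated in recognition, adhesion and the merging step.

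The tetraspanins Cd9 and Cd81 belong to the same family, and their RNA levels lay far apart in these cells. Their upstream sequences are shown for that reason, each as the 250 bases before the RefSeq start site on GRCm38.p6, 5′ to 3′ on the gene's strand, with the NFAT core motif GGAAA, searched on both strands, in capitals. The first is Cd9 at chr6:125494761-125495010 on the minus strand, and the other is Cd81 at chr7:143052500-143052749 on the plus strand.
Cd9: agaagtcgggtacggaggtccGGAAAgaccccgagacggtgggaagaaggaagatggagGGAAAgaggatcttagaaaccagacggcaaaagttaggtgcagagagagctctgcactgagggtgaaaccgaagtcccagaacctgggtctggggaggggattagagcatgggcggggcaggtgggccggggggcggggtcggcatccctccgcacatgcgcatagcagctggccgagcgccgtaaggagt
Cd81: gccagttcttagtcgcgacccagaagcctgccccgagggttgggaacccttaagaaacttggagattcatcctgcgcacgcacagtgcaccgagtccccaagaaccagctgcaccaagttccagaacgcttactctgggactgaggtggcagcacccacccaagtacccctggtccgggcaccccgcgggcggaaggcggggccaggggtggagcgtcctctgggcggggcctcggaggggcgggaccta

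The Cd9 window held the motif at 229 and 191 bases before the start site, and the Cd81 window did not hold these letters. Of all 32851 upstream windows of this length in the table, 55.6% held GGAAA on either strand, so a match is common. Windows were found for 7 of the 10 genes, 9 windows in all, and none for Dcstamp, Ocstamp and Sirpa. Cd44 had GGAAA at 205 and 193 bases and the PU.1 core GAGGAA at 243 and 220 bases before its start, and P2rx7 had GGAAA at 173 bases. P2rx7 was also the only member with the AP-1 motif TGAGTCA, at 249 bases, which 4.46% of all windows held. None of the 9 windows held the E-box CACGTG, present in 6.02% of all windows, and GAGGAA was present in 23.3%. These matches describe letters only, since no factor's binding was measured.

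Recovered read totals were 14122118 to 18897927 per library, and a level is given as CPM, read counts scaled to a common library size. Piezo1 itself was at 430.1 and 384 CPM in the controls and 61.0 and 56.2 CPM in the knockouts (log2 fold change −2.79, SE 0.10, limma Benjamini-Hochberg adjusted p = 8.23e-05), lower in both libraries labelled knockout. RNA of the fluorescent reporter Tdtomato was at 270.4 and 870.4 CPM in the knockouts, against 0.52 and 6.02 CPM in the controls. Markers of the labelled cells were present: all 8 osteoclast markers had a row and summed to 58435 to 61129 CPM in the controls against 59242 to 73425 CPM for the knockouts. The 8 of 9 macrophage and monocyte markers with a row summed to 2991 to 3358 CPM in the controls against 3095 to 3699.6 CPM for the knockouts. Ctsk and Mmp9 made up most of the osteoclast sum in every library, and Csf1r and Cd68 most of the macrophage and monocyte sum. Fcgr1 (0.98 to 1.75 CPM), Ccr2 (1.79 to 3.50 CPM) and Mertk (2.87 to 7.99 CPM) were low. All 5 B cell markers and 7 of 8 T and NK cell markers had no row, and the 6 of 7 neutrophil markers with a row summed to 20.4 to 40.7 CPM in the controls against 23.6 to 25.8 CPM for the knockouts. Stromal, fibroblast and osteoblast markers (19 of 21 with a row) were present in every library and summed to 2516 to 3111 CPM in the controls against 1660 to 1839 CPM for the knockouts, with 17 of 19 lower by log2 fold change. Summed levels in any library were at most 5.02 CPM for dendritic cell markers (1 of 6 with a row), 4.48 CPM for endothelial markers (2 of 5), 2.94 CPM for erythroid markers (2 of 6), 1.69 CPM for T and NK cell markers (1 of 8) and 0.87 CPM for mast cell and basophil markers (1 of 5). The part of these cells in the results below was not tested. In such bulk samples a change in the number of cells of a type and a change in RNA per cell cannot be told apart.

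Per exon length the fusion genes spanned a 104-fold range, and 8 of them lay above the median tested gene. Lengths were exon unions of GENCODE release M21 on GRCm38, and the median over 11690 tested genes with a length was 5.41 CPM per kb. Dcstamp was the most abundant, at 244 to 329 CPM per kb over the 4 libraries (mean 284), higher than 99.1% of tested genes. Sirpa followed at 199 to 226 CPM per kb, and these ranges did not overlap each other or that of the next gene. Cd9 (135 to 182 CPM per kb) and Tm4sf19 (132 to 196 CPM per kb) were not separable, nor were Cd44 (81.8 to 90.0 CPM per kb) and Ocstamp (54.3 to 91.3 CPM per kb).

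Below these came Adam8 at 28.5 to 45.3 CPM per kb and Cd47 at 20.7 to 28.8 CPM per kb, whose ranges touched. Cd81 (3.02 to 4.26 CPM per kb) and P2rx7 (2.17 to 3.18 CPM per kb) were the lowest, also with overlapping ranges, and lay higher than 40.2% and 33.8% of tested genes. Of the tetraspanin pair, Cd9 had a mean of 160.1 CPM per kb and Cd81 3.62 CPM per kb. The union of exons includes isoforms that these cells may not use, so a level per kb can be too low for a gene with many isoforms such as Cd44.

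**Figure D1:**
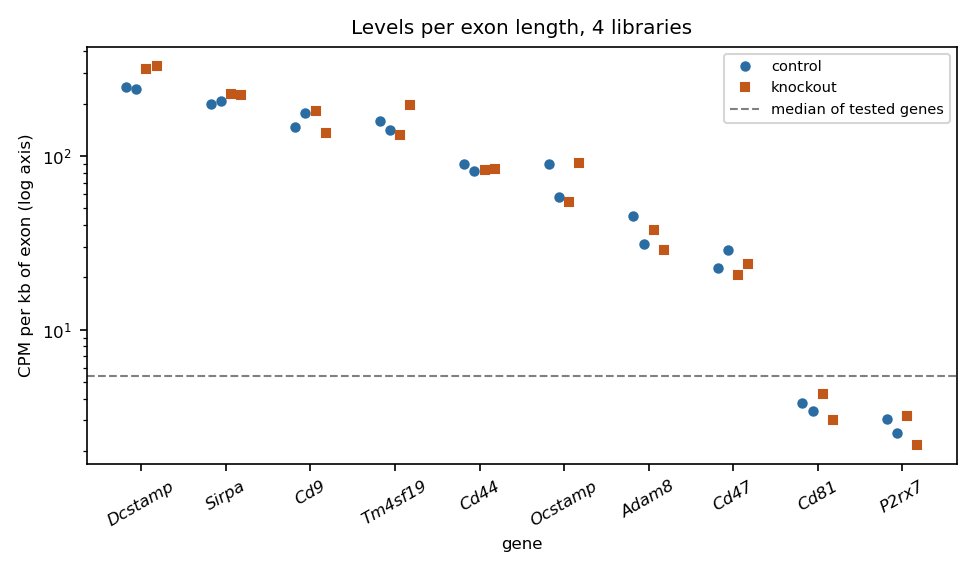
RNA level of each fusion gene per kb of exon on a log axis, 1 point per library (circles: controls, squares: knockouts), with the median of tested genes as a dashed line. Dcstamp is highest at a mean of 284 CPM per kb, and Cd81 and P2rx7 lie below the median of 5.41 CPM per kb.

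The comparison of genotypes asks whether precursors of the knockout genotype, with lowered Piezo1 RNA, carry altered RNA levels of the fusion machinery. None of the 10 genes passed limma's test at an adjusted p under 0.05, a threshold passed by 0.161% of the 11781 genes tested (0.0424% higher and 0.119% lower in the knockouts). All 10 members were among the genes tested. With edgeR on recovered reads (0.161% of all genes) and DESeq2 (0.605% of all genes with an adjusted p) the count was also 0. At an unadjusted p under 0.05, 1 member, Dcstamp, passed in each of the 3 tools, against 4.9%, 4.8% and 2.67% of all genes in limma, edgeR and DESeq2. In limma 1.35% of all genes were higher and 3.55% lower at that threshold. Knockout and control libraries did not overlap for 2 of the 10, Dcstamp and Sirpa, and this was the case for 31.9% of all tested genes (16.5% with the knockouts above and 15.4% with them below). The median log2 fold change was −0.04 for the members, 3 positive and 7 negative, and 0.0016 for all tested genes.

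The median of the absolute log2 fold change was 0.092 for the members and 0.095 for all tested genes. Over the 10 genes the 95% limma intervals ran from −0.66, for Ocstamp, to 0.61, for Dcstamp, on the log2 scale, that is from 0.633-fold to 1.53-fold of the control level. With 2 libraries against 2, an exact permutation test of a single gene cannot go below p = 0.333. Each limma p-value rests on a variance that combines the gene's spread between these libraries with that of other genes. Of its 7.52 degrees of freedom, 5.52 came from the other genes. The design text calls these libraries biological replicates without naming their animals.

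**Figure D2:**
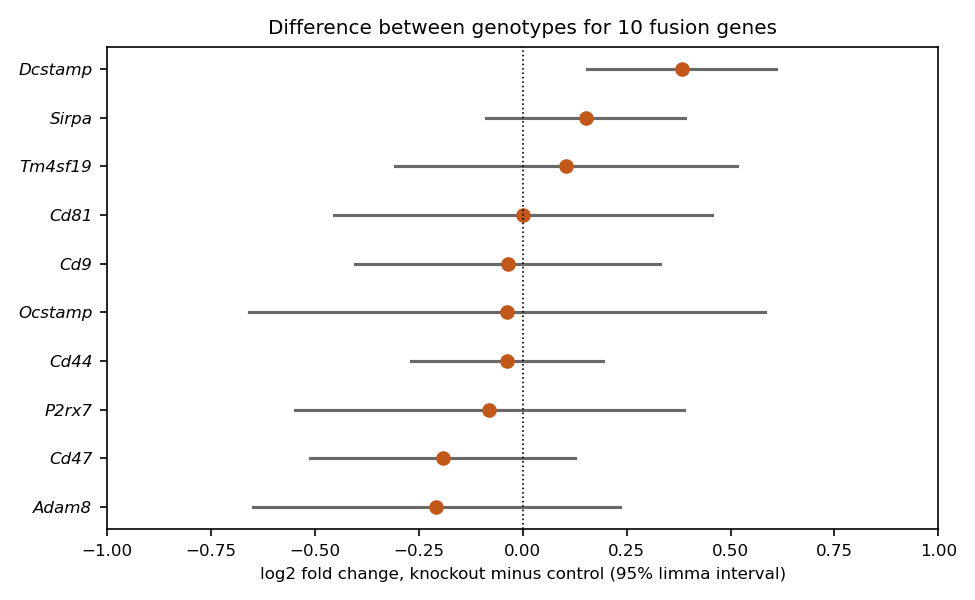
Log2 fold change of each fusion gene, knockout minus control, with its 95% limma interval, ordered by size. Every interval but that of Dcstamp (0.15 to 0.61) includes 0, and no gene passed the adjusted threshold.

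**Figure D3:**
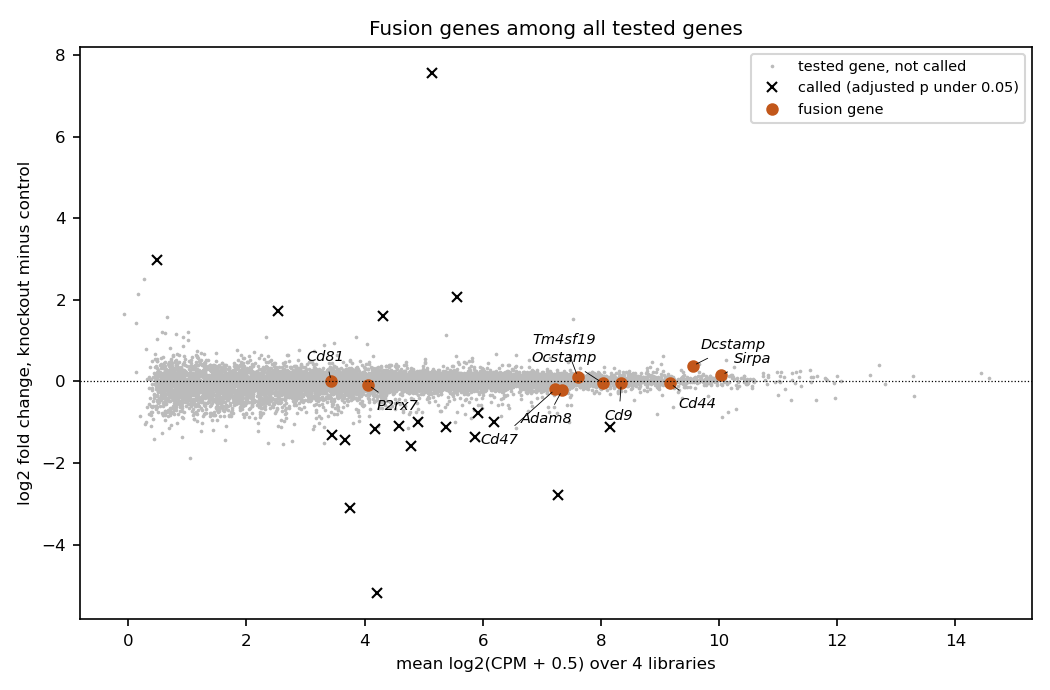
Log2 fold change, knockout minus control, against mean log2(CPM + 0.5) for all 11781 tested genes (grey), the 19 called genes (crosses) and the fusion genes (orange, labelled). The fusion genes lie within the grey band, with Dcstamp at its upper edge at 0.38.

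Dcstamp, on chromosome 15 (39745930 to 39760938, plus strand, ENSMUSG00000022303.9), encodes the fusion receptor DC-STAMP. Its level was 666 and 649 CPM in the controls and 838 and 877 CPM in the knockouts. Both knockout libraries lay above both controls, and the difference between groups was several times the spread within each (control SD 11.8 CPM, knockout SD 27.5 CPM, n = 2 each). The fitted difference was 1.30-fold (log2 fold change 0.38, SE 0.098, 95% interval 0.15 to 0.61, unadjusted p = 0.00512), and after adjustment over all genes with limma p was 0.475. The adjusted p was 0.0818 with DESeq2 and 0.501 with edgeR, and 0.0818 to 1.00 over the alternatives tried. With any 1 library left out the log2 fold change stayed between 0.35 and 0.41. Behind these levels were 9276 to 16130 reads per library.

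Ocstamp, on chromosome 2 (165393760 to 165400405, minus strand, ENSMUSG00000027670.4), encodes OC-STAMP, the RANKL-induced partner in fusion. It was at 329 and 212 CPM in the controls and 199 and 334 CPM in the knockouts. Control 1 and knockout 2 were high and the other libraries low, so that the groups overlapped and their means were nearly the same (271 ± 82.5 and 266 ± 95.8 CPM, SD, n = 2 each). Its log2 fold change was −0.04 (SE 0.27, 95% interval −0.66 to 0.58, limma adjusted p = 0.9998). The higher control was 1.55 times the lower (95% exact interval 1.48 to 1.62, counting error only), and the higher knockout 1.68 times the lower (1.61 to 1.76). On the log2 scale the spread of Ocstamp within a genotype was larger than that of 96.9% of tested genes, while that of Dcstamp was larger than that of 7.45%.

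Tm4sf19, on chromosome 16 (32400506 to 32408227, plus strand), encodes a transmembrane protein of the L6 family that is induced during osteoclast formation. It was at 201 and 176 CPM in the controls and 166 and 246 CPM in the knockouts. The same libraries were high as for Ocstamp, and the groups overlapped (log2 fold change 0.10, SE 0.18, 95% interval −0.31 to 0.52, limma adjusted p = 0.9998). The knockouts differed by 1.49 times (1.42 to 1.56) and the controls by 1.14 times (1.08 to 1.20).

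Control 1 above control 2 together with knockout 2 above knockout 1 was found for 4 of the 10 fusion genes (Dcstamp, Ocstamp, Tm4sf19 and Cd44), for 7 of the 8 osteoclast markers and for 28.1% of all tested genes. For Dcstamp the controls (1.03 times, 0.997 to 1.06) and for Cd44 the knockouts (1.01 times, 0.984 to 1.04) differed by no more than counting error. Of these 4 genes, only Ocstamp and Tm4sf19 thus had both gaps beyond it. The controls of the marker Atp6v0d2 also differed by no more than counting error (1.002 times, 0.991 to 1.01). The integrin subunit gene Itgb3 was at 1285 and 1001 CPM in the controls and 1051 and 1519 CPM in the knockouts. Nfatc1, the transcription factor that drives RANKL-induced genes, was at 926 and 773 CPM in controls against 736 and 1036 CPM in knockouts. The share of mitochondrially encoded transcripts also ranked this way, with control shares of 3.13% and 2.27% and knockout shares of 1.38% and 2.74%. Its part in these levels was not tested.

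**Figure D4:**
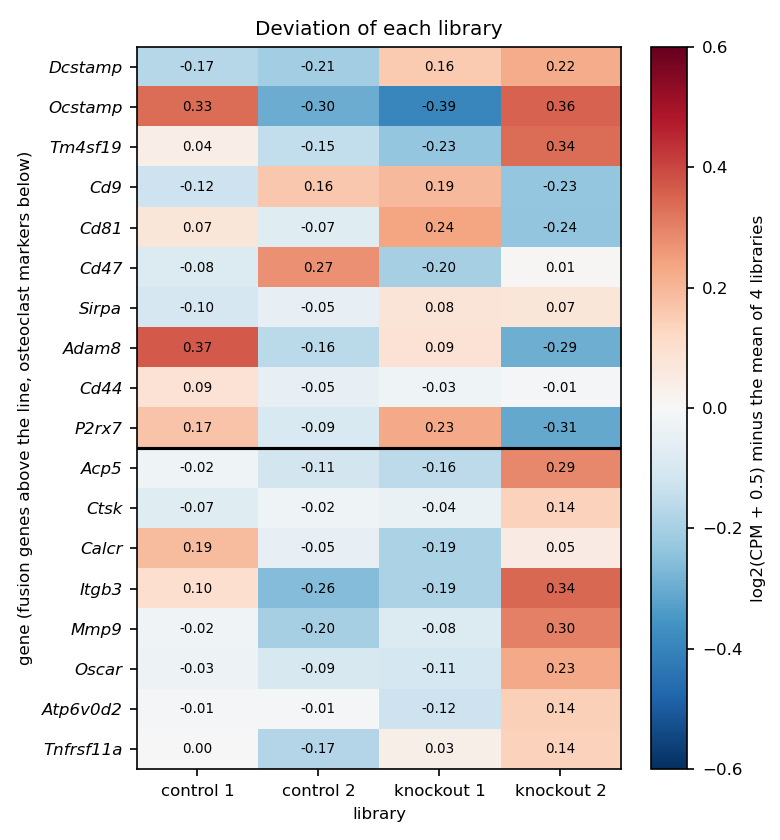
Deviation of each library from the mean of the 4 libraries, in log2(CPM + 0.5), for the fusion genes (above the line) and 8 osteoclast markers (below). Ocstamp and Tm4sf19 are positive in control 1 and knockout 2 and negative in the other libraries, and Cd9 has the opposite signs. Dcstamp and Sirpa are higher in both knockouts than in both controls, as were 16.5% of all tested genes.

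The tetraspanin genes did not follow that order. Cd9, on chromosome 6 (125460266 to 125494791, minus strand), was at 298 and 363 CPM in the controls and 371 and 277 CPM in the knockouts. Control 2 and knockout 1, the libraries low for Ocstamp, were the high ones here, and the groups overlapped (log2 fold change −0.04, 95% interval −0.40 to 0.33, limma adjusted p = 0.9998). Cd81, on chromosome 7 (143052739 to 143067934, plus strand), was at 10.9 and 9.80 CPM in the controls and 12.3 and 8.70 CPM in the knockouts, from 140 to 186 reads per library. The groups overlapped fully (log2 fold change −0.0002, 95% interval −0.46 to 0.45), and for the controls the gap lay within counting error (1.11 times, 0.88 to 1.40).

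Cd47 and Sirpa encode a ligand and receptor pair through which macrophages recognise each other. Cd47, on chromosome 16 (49800533 to 49915010, plus strand), was at 141 and 181 CPM in the controls and 129.9 and 150.3 CPM in the knockouts. Knockout 2 lay between the controls, so the groups overlapped (log2 fold change −0.19, SE 0.14, 95% interval −0.51 to 0.13, limma adjusted p = 0.9998). Sirpa, the receptor, on chromosome 2 (129592835 to 129632228, plus strand), was at 977 and 1014 CPM in the controls and 1109 and 1103 CPM in the knockouts. Both knockouts lay above both controls by a margin larger than either group's spread (996 ± 26.3 and 1106 ± 3.84 CPM, SD, n = 2 each). The difference was 1.11-fold (log2 fold change 0.15, 95% interval −0.09 to 0.39) and did not pass (limma adjusted p = 0.9998). Groups with the knockouts above the controls occurred for 16.5% of all tested genes.

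Adam8, on chromosome 7 (139978932 to 139992562, minus strand), encodes a membrane-anchored metalloproteinase-disintegrin. It was at 210.0 and 145 CPM in the controls and 173 and 132 CPM in the knockouts. Replicate 1 was the higher library in each genotype and the groups overlapped (log2 fold change −0.21, SE 0.19, 95% interval −0.65 to 0.23, limma adjusted p = 0.9998). Its spread within a genotype was larger than that of 89.9% of tested genes.

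Cd44, the hyaluronan and osteopontin receptor gene on chromosome 2 (102811141 to 102901665, minus strand), was at 610.1 and 555 CPM in the controls and 563 and 569.9 CPM in the knockouts. Both knockouts lay between the controls (log2 fold change −0.04, 95% interval −0.27 to 0.19), the narrowest interval among the 8 members whose groups overlapped. P2rx7, on chromosome 5 (122643911 to 122691432, plus strand), encodes the ATP-gated channel P2X7. It was at 18.2 and 15.1 CPM in the controls and 19.0 and 12.9 CPM in the knockouts, with knockout 1 highest and knockout 2 lowest of the 4 (log2 fold change −0.08, 95% interval −0.55 to 0.39). Both genes had a limma adjusted p of 0.9998.

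**Figure D5:**
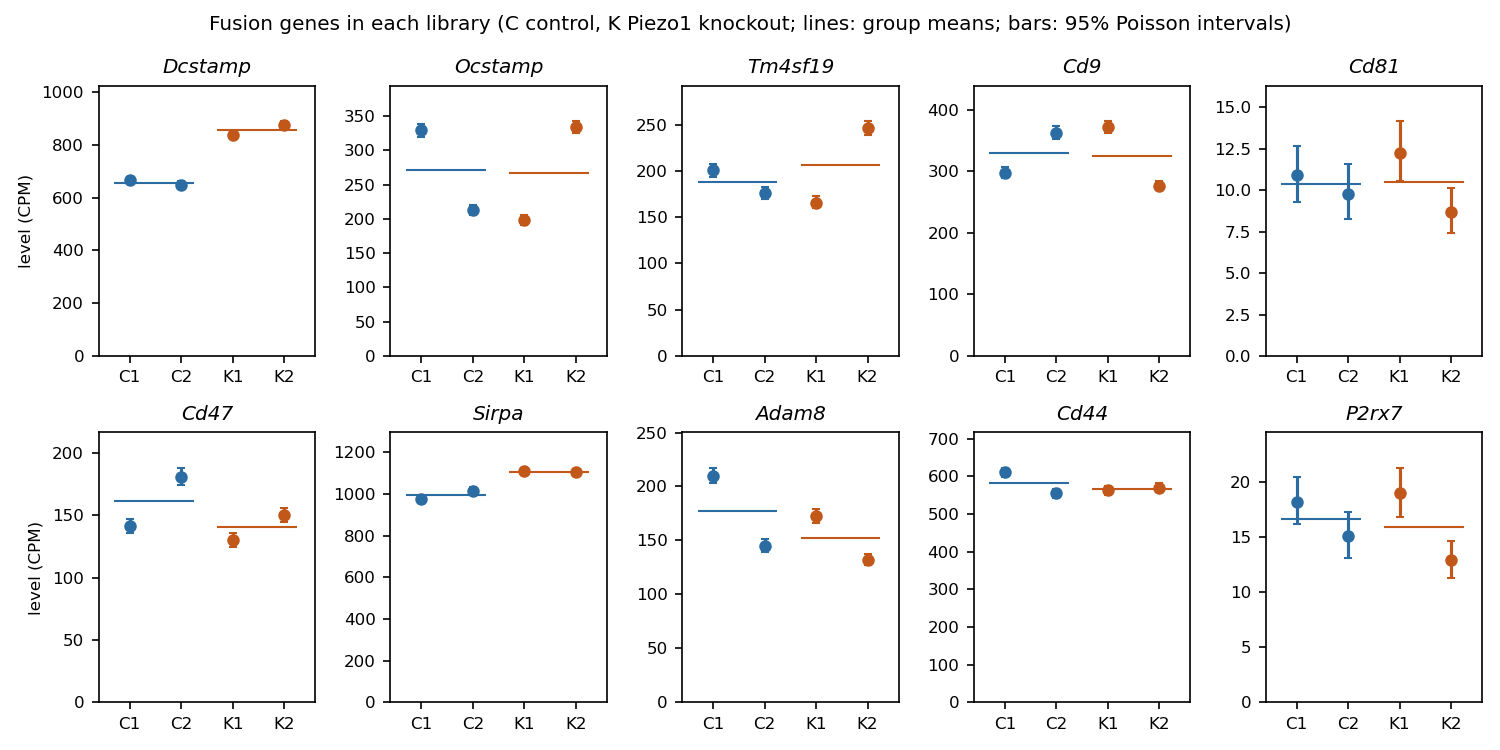
Level of each fusion gene in CPM in the 4 libraries, with 95% Poisson intervals (counting error only) and group means as lines. Dcstamp and Sirpa are higher in both knockouts than in both controls, as were 16.5% of all tested genes. The other 8 genes overlap between genotypes.

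For 7 of the 10 genes the spread within a genotype exceeded the median of tested genes, which was 0.13 on the log2 scale against a median of 0.25 for the members. Reads could be shared with other genes for a few members. Of the distinct 45-base words in the Cd9 transcripts, 45 bases being the length of 1 read, 15.2% also occurred in transcripts of other genes, and 10.7% of its exon bases overlapped a noncoding transcript on the opposite strand, Gm26728. The share was 3.32% for Ocstamp, 1.32% for P2rx7, 1.05% for Cd81, 0.988% for Cd47 and 0.041% for Adam8, and 0 for Dcstamp, Tm4sf19, Sirpa and Cd44. How such reads were counted is not stated in these sources.

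No other gene of macrophage and osteoclast fusion on the list passed. Limma called 0.161% of all tested genes, so 0 is near that share, and 4.9% had an unadjusted p under 0.05. Of 28 listed, 24 were tested with limma, 0 rose and 0 fell (also 0 with edgeR and DESeq2, and 0 at an unadjusted p under 0.05), with a median log2 fold change of 0.07 (17 positive, 7 negative) against 0.0016 for all tested genes. Atp6v0d2, a proton pump subunit needed for fusion, was at 4279 and 4271 CPM in the controls and 3948 and 4753 CPM in the knockouts. Siglec15, a sialic acid receptor that signals through DAP12, was at 171 and 145 CPM in controls against 162 and 203 CPM in knockouts, and Tyrobp, which encodes DAP12, at 273 and 275 CPM in controls against 292 and 325 CPM in knockouts (log2 fold change 0.17, 95% interval −0.05 to 0.39). Adam12, which encodes meltrin alpha, a disintegrin also known from muscle cell fusion, was at 2.99 and 3.08 CPM in the controls and 1.72 and 2.28 CPM in the knockouts (limma adjusted p = 0.9998).

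Among relatives of the members, 8 of 18 were tested with limma and 0 passed, also with edgeR and DESeq2 (median log2 fold change −0.09). In limma 2 were lower at an unadjusted p under 0.05, where 3.55% of all tested genes were lower. Adam19 was at 11.6 and 12.9 CPM in the controls and 7.59 and 7.12 CPM in the knockouts (limma adjusted p = 0.326), and Tm4sf1 at 4.29 and 6.02 CPM in controls against 3.30 and 1.96 CPM in knockouts (limma adjusted p = 0.806). P2rx4, the channel most related to P2rx7 on this list, was at 26.8 and 28.5 CPM in controls against 30.1 and 19.7 CPM in knockouts. Dcst1 and Dcst2, which share a domain with DC-STAMP, were not analysed here.

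Of 21 tetraspanins and partners of CD9 and CD81, 18 were tested with limma and 0 passed, also with edgeR and DESeq2 (median log2 fold change 0.04). In limma 1 was higher and 1 lower at an unadjusted p under 0.05, against 1.35% and 3.55% of all tested genes. Tspan7, a tetraspanin present in osteoclasts, was at 78.8 and 104 CPM in the controls and 134 and 129 CPM in the knockouts (log2 fold change 0.53, 95% interval 0.21 to 0.85, limma adjusted p = 0.474). Cd37, a leukocyte tetraspanin, was at 84.5 and 107 CPM in controls against 78.1 and 72.1 CPM in knockouts (limma adjusted p = 0.951). Igsf8, an immunoglobulin-domain partner of both proteins, was at 74.5 and 70.3 CPM in controls against 82.4 and 65.6 CPM in knockouts (log2 fold change 0.02). Ptgfrn, a related partner, was at 46.6 and 46.0 CPM in controls against 43.6 and 42.0 CPM in knockouts (log2 fold change −0.11).

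A ligand of CD47 fell, on a list chosen with earlier results of these data known. Of 14 genes of CD47 and SIRPA binding and signalling, all tested with limma, 1 fell and 13 did not pass (median log2 fold change 0.05). edgeR called 1 (0.161% of all tested genes) and DESeq2 called 2 (0.605% of all genes with an adjusted p), all lower. At an unadjusted p under 0.05 in limma 0 were higher and 3 lower (Thbs1, Thbs2 and Lrp1, the last named after its values were seen), where 3.55% of all tested genes were lower. Thbs1, which encodes the secreted CD47 ligand thrombospondin-1, was at 425 and 411 CPM in the controls and 169 and 218 CPM in the knockouts (log2 fold change −1.12, SE 0.13, limma adjusted p = 0.0284). The call was lost without control 1 (adjusted p = 0.177), without control 2 (adjusted p = 0.237) and without an intensity trend in the variance (adjusted p = 0.345). DESeq2 called Thbs1 and the related Thbs2 (67.3 and 69.5 CPM in controls, 33.7 and 45.3 CPM in knockouts, DESeq2 adjusted p = 0.00155, limma adjusted p = 0.175), the latter named after its values were seen. Ptpn6, the phosphatase SHP-1 recruited by SIRPA, was at 380.2 and 391 CPM in controls against 404 and 399 CPM in knockouts (limma adjusted p = 0.9998).

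Of 15 CD44 ligands and cytoskeletal partners, 13 were tested with limma and 0 passed (median log2 fold change −0.0039). With edgeR 0 passed, and 2 were lower with DESeq2, which called 0.605% of all genes with an adjusted p. At an unadjusted p under 0.05 in limma 1 was higher and 3 were lower, against 1.35% and 3.55% of all tested genes. Has2, a hyaluronan synthase, was at 8.83 and 7.56 CPM in the controls and 3.30 and 1.96 CPM in the knockouts (limma adjusted p = 0.132, DESeq2 adjusted p = 0.00425). Fn1, which encodes fibronectin, was at 1621 and 1263 CPM in controls against 771 and 796 CPM in knockouts (limma adjusted p = 0.111, DESeq2 adjusted p = 6.21e-08). The stromal markers summed to 2516 and 3111 CPM in the controls and 1839 and 1660 CPM in the knockouts. Between genotypes these sums were lower in the knockouts, as were Thbs1, Thbs2, Has2 and Fn1. Within each genotype Thbs1 and Fn1 ranked the 2 libraries the other way round from these sums. So did Thbs2 in the knockouts and Has2 in the controls. For Thbs1 the controls differed by no more than counting error (1.04 times, 0.9998 to 1.07). The stromal markers themselves did not all rank the knockouts alike: Col1a1 was at 386 and 365 CPM and Acta2 at 68.9 and 104 CPM. The part of the stromal markers was not tested. Spp1, the osteopontin gene, was at 3124 and 4110 CPM in controls against 3944 and 3427 CPM in knockouts (log2 fold change 0.04, 95% interval −0.38 to 0.46).

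No gene of downstream machinery was called, where limma called 0.161% of all tested genes, so 0 is near that share. An unadjusted p under 0.05 in limma was found for 4.9% of all tested genes. Of 18 genes of P2X7 and nucleotide signalling 14 were tested with limma and 0 passed, also with edgeR and DESeq2, with 0 at an unadjusted p under 0.05 (median log2 fold change 0.10). The smallest p belonged to Nt5e, which makes extracellular adenosine, at 0.97 and 0.91 CPM in controls against 2.51 and 1.20 CPM in knockouts. Both control values lay below the 1 CPM filter, so Nt5e was tested only through the knockouts. Its log2 fold change was 0.82 with a pseudocount of 0.1 and 0.37 with a pseudocount of 2. Ada, which degrades adenosine, was at 11.7 and 12.0 CPM in controls against 16.9 and 12.5 CPM in knockouts, and each gene had a limma adjusted p of 0.9998. All 32 genes of actin, membrane remodelling and phosphatidylserine exposure were tested and 0 passed with these tools (median log2 fold change 0.02). In limma 1 was higher and 1 lower at an unadjusted p under 0.05, against 1.35% and 3.55% of all tested genes. Fscn1, an actin-bundling protein, was at 11.0 and 15.1 CPM in controls against 8.12 and 8.70 CPM in knockouts, and the adaptor Cd2ap at 63.5 and 55.2 CPM in controls against 72.6 and 69.5 CPM in knockouts (limma adjusted p = 0.781 and 0.987).

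Transcription factors and repressors that act on fusion genes, 17 of 18 tested with limma, also had 0 calls in the 3 tools and 0 at an unadjusted p under 0.05 (median log2 fold change −0.06, range −0.17 to 0.15). Limma called 0.161% of all tested genes, and 4.9% had an unadjusted p under 0.05, so 0 of 17 says little about these genes. Nfatc1 had a log2 fold change of 0.04 (95% interval −0.36 to 0.45). The stress-response factor Nfe2l2 was at 115 and 103 CPM in controls against 130.0 and 113 CPM in knockouts, and the NF-kB subunit gene Nfkb1 at 104 and 96.7 CPM in controls against 102 and 112 CPM in knockouts, each with a limma adjusted p of 0.9998.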

How the data were processed

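Per the submitters' processing notes, STAR, featureCounts from Subread and edgeR were used with mouse build mm10 (GRCm38); tool versions, strandedness, the annotation release and the low-gene filter were not given in the sources used here. The authors deposited 1 table with a normalised signal per library. Its values were 100% whole multiples of the column's value for 1 read (tolerance 0.001 reads), which gave back whole reads; edgeR TMM scaling of those reads returned the deposited values. For the main test, log2(CPM + 0.5) was fitted in limma (intensity trend, genotype as sole term, 2-sided) for every gene reaching 1 CPM in 2 or more libraries, with Benjamini-Hochberg adjustment over all tested genes. A fold change on this scale understates low genes. Poisson and exact binomial intervals are at 95% and cover counting error only. Every pair of libraries differed beyond sampling noise in a chi-square test of reads. The chi-square per gene was largest between the knockouts (22.61), against 11.18 between the controls and 12.06 to 21.09 between genotypes. Members and lists were chosen with earlier results of these data known. Named were Piezo1, the members, called genes or otherwise the 2 smallest p of each further list, and 11 direct partners. Upstream sequences came from RefSeq (GRCm38.p6), positions from GENCODE M21. Alternatives were other pseudocounts, filters, scalings, variance models, a replicate block, edgeR, DESeq2 and leaving out each library. The fits were tested on simulated data. Versions were Python 3.11.15 (pandas 2.3.3, SciPy 1.17.1, NumPy 2.4.6, matplotlib 3.10.9) and R 4.3.3 (DESeq2 1.42.0, edgeR 4.0.16, limma 3.58.1).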

Additional observations from a re-analysis of the deposited data

How the results depend on the processing

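Of 15 alternatives, 11 kept all 4 libraries, and under each of these 0 of the 10 fusion genes passed. In each of the 11, 1 fusion gene had an unadjusted p under 0.05. The share of all genes at that threshold was 4.8% with edgeR and 2.67% with DESeq2, and was not counted for the others. Dcstamp, Sirpa and Cd47 kept their sign under all 15 alternatives. The other 7 of the 10 changed sign with some library left out, none of them called in the main fit. The log2 fold change of Cd47 was −0.37 without control 1 and −0.015 without control 2. With 1 library left out, the log2 fold change ran from −0.41 to 0.34 for Ocstamp, −0.18 to 0.39 for Tm4sf19, −0.25 to 0.18 for Cd9, −0.24 to 0.24 for Cd81, −0.47 to 0.058 for Adam8, −0.11 to 0.031 for Cd44 and −0.35 to 0.19 for P2rx7. That of Cd81, −0.0002, was 0.0017 with a pseudocount of 2, 0.012 with edgeR and 0.014 with DESeq2. Among the partners, the range was −0.11 to 0.15 for Atp6v0d2, −0.14 to 0.19 for Igsf8, −0.20 to 0.29 for Nfatc1, −0.48 to 0.12 for P2rx4 and −0.16 to 0.24 for Spp1, and with total count scaling Atp6v0d2 was at −0.0048 and Igsf8 at −0.00098.

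Over all genes, 19 were called by limma, 63 by DESeq2, 4 without an intensity trend, and 7 to 76 with 1 library left out: leaving out a control gave 7 (control 1) and 8 (control 2), and leaving out a knockout gave 76 (knockout 1) and 61 (knockout 2). With 1 library alone in its group, that library is assumed to vary like the others. The cause of these differences was not tested. With the replicate number as a block 89 genes passed (18 higher, 71 lower), again with 0 fusion genes, but Fn1, Has2 and Thbs2 passed (adjusted p = 0.00839, 0.000695 and 0.0027). Nothing in the labels says that the numbers pair the samples, and the deviations of same-numbered libraries had a correlation of −0.0016 across 11781 genes. The fewest reads behind a member's value were 140, for Cd81, where counting error limits the precision most.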
